A study of Drosophila melanogaster with 23 samples.

Results

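Zelda (Zld) and GAGA factor (GAF) were compared at the sites that each occupied in chromatin of early Drosophila melanogaster embryos. Zelda is a zinc finger protein, loaded into the egg by the mother, that opens chromatin at early genes when the zygotic genome is switched on. GAF, the product of Trithorax-like (Trl), binds GA repeats, keeps promoters and Polycomb response elements open, and is known for its role at heat shock and Hox genes. Both are called pioneer factors because they can bind nucleosomal DNA, and H3K27ac and H3K4me1 are histone marks of active promoters and enhancers and of enhancers, respectively.

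The study holds 23 libraries from whole wild-type Oregon-R embryos aged 2 to 3 h after egg laying. The groups compared here were 6 of them, 3 ChIP-nexus libraries with an antibody raised against Zelda amino acids 1117 to 1327 and 3 with one against GAF amino acids 1 to 382. In ChIP-nexus an exonuclease trims the precipitated fragments up to the bound protein. For the marks there were 2 H3K27ac and 2 H3K4me1 ChIP-seq libraries of the same stage. No group carried a mutation or a treatment, and the labels do not say whether replicates came from separate embryo collections, so their spread may be technical.

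Sites were runs of 50 bp or more that lay inside a deposited interval in each of the 3 lists of one factor. This gave 30713 Zld sites and 20238 GAF sites on the left and right arms of chromosomes 2 and 3, on chromosome 4 and on X. These together are 50951 of the 165854 sites counted in the same way for the 6 mapped factors. A site was shared when it overlapped a site of the other factor by at least 1 bp. It was called Zld only or GAF only when no interval of any list of the other factor touched it. The remaining sites met an interval in some lists of the other factor and were counted as in between. The lists come from whole embryos, so binding of both factors in the same nucleus and binding in different nuclei cannot be told apart.

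Of the Zld sites, 10284 (33.5%) were shared, 15675 (51.0%) were Zld only and 4754 (15.5%) were in between. Of the GAF sites, 10299 (50.9%) were shared, 6353 (31.4%) were GAF only and 3586 (17.7%) were in between. Sharing was almost always one site with one site, since 9970 of the shared Zld sites met a single GAF site and none met more than 3. By sequence covered, the 2.67 Mb common to both sets made up 28.2% of the Zld and 43.6% of the GAF sites. These shares follow in part from the lists themselves. The Zld lists held 48294, 51386 and 58434 intervals and the GAF lists 30308, 34602 and 30281. Read depth is unknown, and a missing interval does not show that a factor was not bound.

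**Figure D1:**
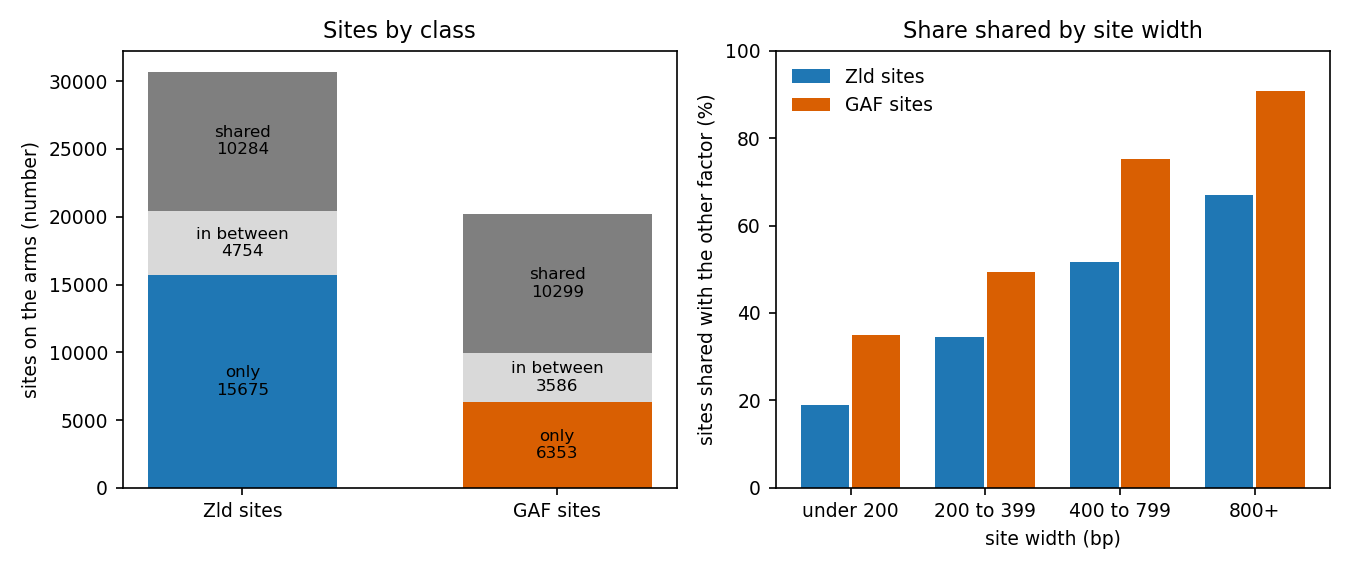
The left plot stacks the number of Zld and GAF sites on the arms by class. The right plot gives the percentage of sites shared with the other factor in 4 width classes, which lies between 18.9% and 67.1% for Zld sites and between 34.9% and 90.8% for GAF sites.

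Library by library, 27.7%, 26.5% and 22.8% of the Zld intervals overlapped a GAF site, while 42.7%, 43.0% and 45.8% of the GAF intervals overlapped a Zld site. Every GAF library lay above every Zld library. The difference of Zld minus GAF was −18.2 percentage points (exact two-sided permutation p = 0.10, the smallest that 3 against 3 libraries can give). Among the 5000 strongest intervals of each list the order turned, with 21.9% ± 0.676 for Zld and 18.9% ± 0.628 for GAF (SD, n = 3; exact permutation p = 0.10). With −log10 q of at least 10 GAF was again above Zld, with 40.1% ± 1.99 against 33.5% ± 2.37 (SD, n = 3; exact permutation p = 0.10). The order thus depended on which intervals were kept. Shared sites are nearly equal in number from either factor, so these shares also reflect the length of each list. A difference between the factors apart from list length was not tested.

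Shared sites were wider than the others. Zld-only sites had a median width of 212 bp (quartiles 157 and 305), GAF-only sites 228 bp (168 and 300), and shared sites 327 bp measured as Zld sites (222 and 488) and 314 bp measured as GAF sites (224 and 429). A wider site has more bases in which to meet an interval, so width and class are tied by the rule itself. Sites of 800 bp or more made up 1.07% of the Zld-only, 6.28% of the shared Zld and 0.142% of the GAF-only sites. Interval widths before classing overlapped between the factors, with library medians of 284, 264 and 254 bp for Zld and 266, 253 and 298 bp for GAF, a difference of −5 bp (exact permutation p = 0.70). Its sign depended on single libraries, with 1.67 bp without Zld replicate 3 and 7.83 bp without GAF replicate 3. Among the 5000 strongest intervals Zld libraries were wider, with medians of 603, 559 and 561 bp against 418, 421 and 473 bp (exact permutation p = 0.10).

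Shared sites also ranked higher in the lists of both factors. The median percentile of a site's best interval, ordered by −log10 p within each list with the strongest at the top, was 78.8, 79.5 and 80.5 in the 3 Zld libraries for shared sites and 54.8, 56.5 and 62.5 for Zld-only sites. In the 3 GAF libraries it was 69.3, 74.8 and 71.4 for shared sites and 58.9, 61.2 and 57.5 for GAF-only sites. Neither pair of ranges overlapped. Sites in between had median percentiles of 22.6 ± 5.40 in those GAF libraries that had an interval there (SD, n = 3), so the GAF intervals that kept a Zld site out of both classes were mostly low in their lists. Fold enrichment, the authors' own value, had a median of 4.34 ± 0.540 at shared and 2.86 ± 0.182 at Zld-only sites in the Zld lists, and of 10.4 ± 0.275 at shared and 6.63 ± 0.802 at GAF-only sites in the GAF lists (SD, n = 3).

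The share of shared sites fell steadily down the Zld ranking. In the strongest of 10 equal groups of Zld sites, 61.7% of 3071 sites were shared and 26.1% were Zld only. In the weakest group 10.8% were shared and 75.9% were Zld only. For GAF sites the strongest group stood apart, with 86.5% of 2023 sites shared and 6.13% GAF only, and from the 4th group on the share stayed between 37.5% and 47.1%.

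At shared sites the summits of the 2 factors lay farther apart than those of replicates of one factor. Shared sites were chosen by overlap, so nearness of the 2 factors follows in part from the rule. The median distance between a Zld summit and a GAF summit was 51 to 62 bp over the 9 pairs of libraries, and 42.5% to 49.5% of shared sites had them within 50 bp. Between Zld libraries the median was 19 to 23 bp, with 74.3% to 78.7% within 50 bp, and between GAF libraries it was 12 to 18 bp, with 83.2% to 86.4% within 50 bp. The ranges of pairs within and between factors did not overlap. The same held in Zld sites of up to 400 bp, where same-numbered Zld and GAF libraries had medians of 43 to 51 bp and pairs of one factor 12 to 26 bp. Outside the shared class, Zld-only sites lay a median of 2359 bp from the nearest GAF site and GAF-only sites 1773 bp from the nearest Zld site. These distances also depend on how many sites the other factor has, and no level for randomly placed sites was computed.

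Position was measured from the midpoint of a site to the nearest end of a protein-coding gene in the RefSeq table of Release 6. The table gives no strand, so a gene end is either the start or the end of the gene. Gene ends were found no more than 500 bp away at 3012 shared Zld sites (29.3%, exact 95% interval 28.4 to 30.2), 3589 Zld-only sites (22.9%, 22.2 to 23.6) and 1272 GAF-only sites (20.02%, 19.0 to 21.0). Windows of 500 bp around gene ends cover 15.0% of the arms. Within 100 bp the shares were 14.5% for shared, 8.99% for Zld-only and 7.82% for GAF-only sites. The intervals cover counting error over sites only, and neighbouring sites are not independent.

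Beyond 2 kb from a gene end the classes came close together, with 53.5% of shared, 57.6% of Zld-only and 58.8% of GAF-only sites. Midpoints inside a protein-coding gene made up 63.4% of shared, 67.2% of Zld-only and 64.0% of GAF-only sites, against 67.2% of the arms covered by such genes. Read at the summits of single libraries, the share within 500 bp of a gene end was 29.6%, 29.4% and 29.2% for shared sites and 23.2%, 23.2% and 23.0% for Zld-only sites in the Zld libraries. It was 20.2%, 20.2% and 20.4% for GAF-only sites in the GAF libraries. These libraries were read at the same sites and are not independent repeats of the class.

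The excess of Zld-only over GAF-only sites at gene ends, 2.87 percentage points (95% interval 1.69 to 4.06), was small and unsteady. It was 0.794 points without Zld replicate 1, 0.696 without Zld replicate 2 and 0.266 when sites over stretches covered in all 12 lists of Bicoid, Caudal, Dorsal and Twist were left out. Among sites built from the 5000 strongest intervals it was 33.1 points.

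**Figure D2:**
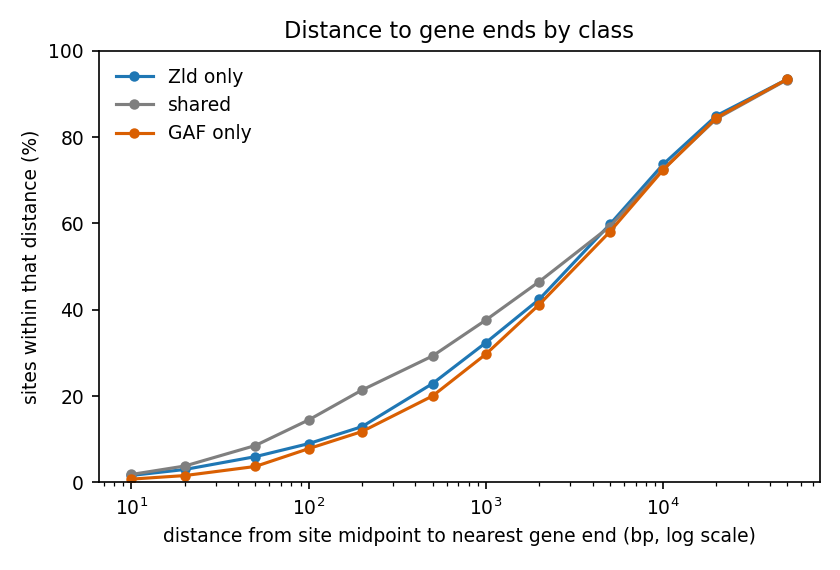
The lines give, for each class, the percentage of sites whose midpoint lies within a given distance (bp, log scale) of the nearest gene end. Shared sites run above both other classes from 50 to 2000 bp, with 29.3% within 500 bp against 22.9% for Zld-only and 20.02% for GAF-only sites.

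The order of shared and Zld-only sites turned when sites of like strength were set side by side. In the strongest of the 10 groups of Zld sites, 62.2% of 801 Zld-only sites and 50.7% of 1894 shared sites lay within 500 bp of a gene end. In the next group the shares were 48.6% and 36.8%, and in the 3rd group 41.3% and 32.4%. Zld-only sites lay above shared sites in each of the strongest 7 groups. In the weakest group the order was the other way, with 11.3% for Zld-only and 18.1% for shared sites. The pooled excess for shared over Zld-only sites was 6.39 points, and it was −11.6 points with the 5000 strongest intervals and −2.42 points with −log10 q of at least 10. Without the sites over stretches covered in all 12 other lists it was 1.53 points.

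GAF-only sites showed a smaller span along the GAF ranking. Their share within 500 bp of a gene end was 29.0% in the strongest group of GAF sites, 29.9% in the next and 16.3% in the weakest. Shared sites, ordered by the same GAF ranking, lay between 22.2% and 33.4% in all 10 groups with no steady order.

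GAF-only sites held less H3K27ac than shared and Zld-only sites. Midpoints inside an H3K27ac region made up 22.6% of shared Zld sites (2321 sites, exact 95% interval 21.8 to 23.4), 24.6% of shared GAF sites (2533, 23.8 to 25.4), 16.4% of Zld-only sites (2574, 15.8 to 17.0) and 8.42% of GAF-only sites (535, 7.75 to 9.13). The regions cover 7.80% of the arms, so GAF-only sites lay close to that level. So did GAF sites in between, with 8.23%, while Zld sites in between had 19.3%. Both mark libraries gave the same order. With H3K27ac replicate 1 alone the shares were 24.8% for shared Zld sites, 18.2% for Zld only and 9.96% for GAF only, and with replicate 2 alone they were 25.5%, 18.5% and 9.98%. Read at the summits of the Zld libraries, the gap was smaller. Regions of both mark libraries then held 16.7%, 17.2% and 17.7% of shared and 13.6%, 14.0% and 14.7% of Zld-only sites. At GAF summits they held 23.3%, 23.1% and 23.1% of shared GAF and 8.33%, 8.23% and 8.17% of GAF-only sites.

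Many more sites had H3K27ac beside them than over their midpoint. Within 500 bp of a region lay 42.3% of shared Zld sites, 28.9% of Zld-only sites and 15.0% of GAF-only sites. The excess of Zld-only over GAF-only sites was 8.0 points by midpoint (95% interval 7.104 to 8.90) and 13.9 points within 500 bp. Without Zld replicate 1 the midpoint excess was 5.29 points, against 26.0 among the 5000 strongest intervals and 20.1 for intervals with −log10 q of at least 10.

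GAF-only sites differed most from shared and Zld-only sites in H3K27ac at gene ends, where shared and Zld-only sites were alike. GAF sites in between were also lower there, with 19.5%. Among sites within 500 bp of a gene end, 41.2% of 3589 Zld-only sites (exact 95% interval 39.6 to 42.8) and 41.2% of 3012 shared Zld sites (39.4 to 43.0) had their midpoint in H3K27ac, against 11.2% of 1272 GAF-only sites (9.48 to 13.0). From 500 to 2000 bp shared sites were highest with 29.6%, followed by Zld-only sites with 15.8% and GAF-only sites with 15.0%. Beyond 2000 bp the shares were 10.1%, 6.79% and 5.11%. GAF-only sites were thus the one class of these 3 whose H3K27ac share was not highest next to gene ends.

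**Figure D3:**
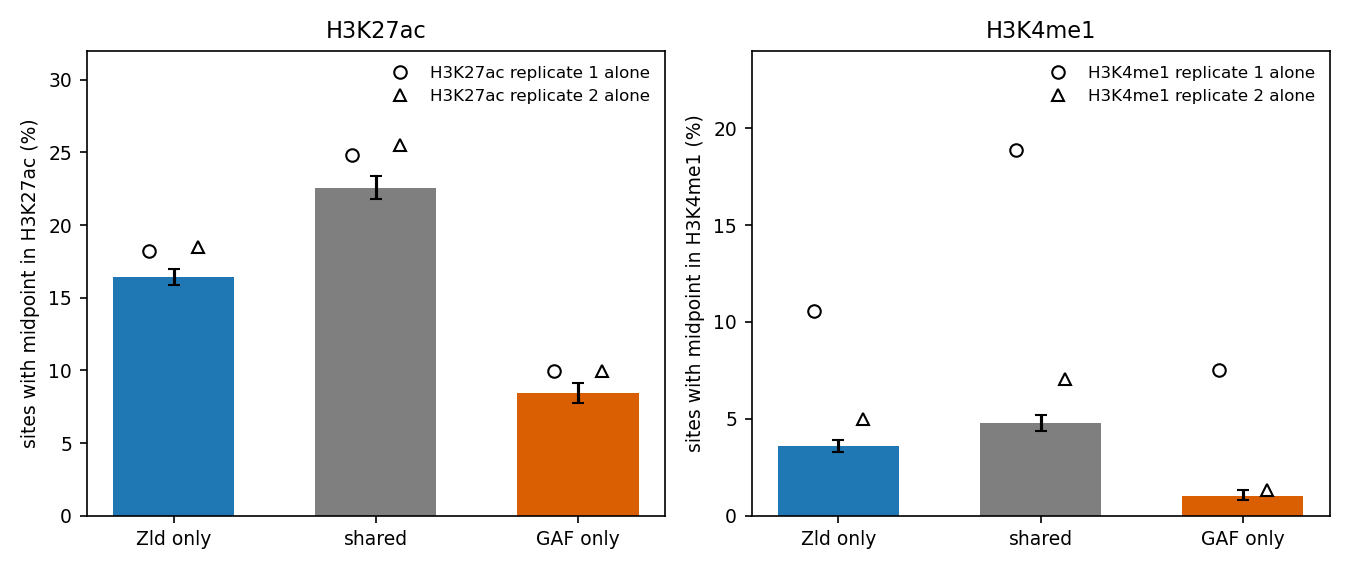
Bars give the percentage of sites whose midpoint lies in a region found in both libraries of the mark, with exact 95% intervals over sites. Symbols give the same with each mark library alone. GAF-only sites are the lowest of the classes shown in every case, with 8.42% in H3K27ac and 1.02% in H3K4me1.

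H3K27ac rose with width in Zld sites and varied little with it below 800 bp in GAF sites of every class. H3K27ac held 9.71% of Zld-only sites under 200 bp, 16.8% from 200 to under 400 bp, 36.7% from 400 to under 800 bp and 52.4% of the 168 sites of 800 bp or more. Shared Zld sites had 11.6%, 15.1%, 32.3% and 60.8% in the same order. GAF-only sites had 8.996%, 7.60% and 10.96% below 800 bp, and only 9 were wider. Shared GAF sites had 26.2%, 21.9% and 25.9% below 800 bp, and 54.4% of the 226 wider ones lay in the mark. GAF sites in between had 9.59%, 7.59% and 7.33% below 800 bp. At equal width the order of shared Zld and Zld-only sites turned from one width class to another. GAF-only sites of 400 to under 800 bp were far below both.

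At equal strength, shared Zld sites held less H3K27ac than Zld-only sites over most of the range. In the 3rd, 4th and 5th of the 10 groups from the strongest, 27.9%, 19.9% and 16.0% of shared sites and 34.4%, 29.5% and 22.7% of Zld-only sites lay in the mark. In the strongest group the values were 35.8% and 36.6%. The pooled excess of shared over Zld-only sites, 6.15 points, was −10.4 points with the 5000 strongest intervals. It was −0.678 points with −log10 q of at least 10 and 1.02 points without the sites over stretches covered in all 12 other lists. Seen from GAF, the order was another. From the 4th to the weakest group of GAF sites, 24.8% to 32.1% of shared sites lay in H3K27ac against 5.81% to 9.56% of GAF-only sites, and only in the strongest group were they alike, with 23.3% and 23.4%, the latter of 124 sites.

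**Figure D4:**
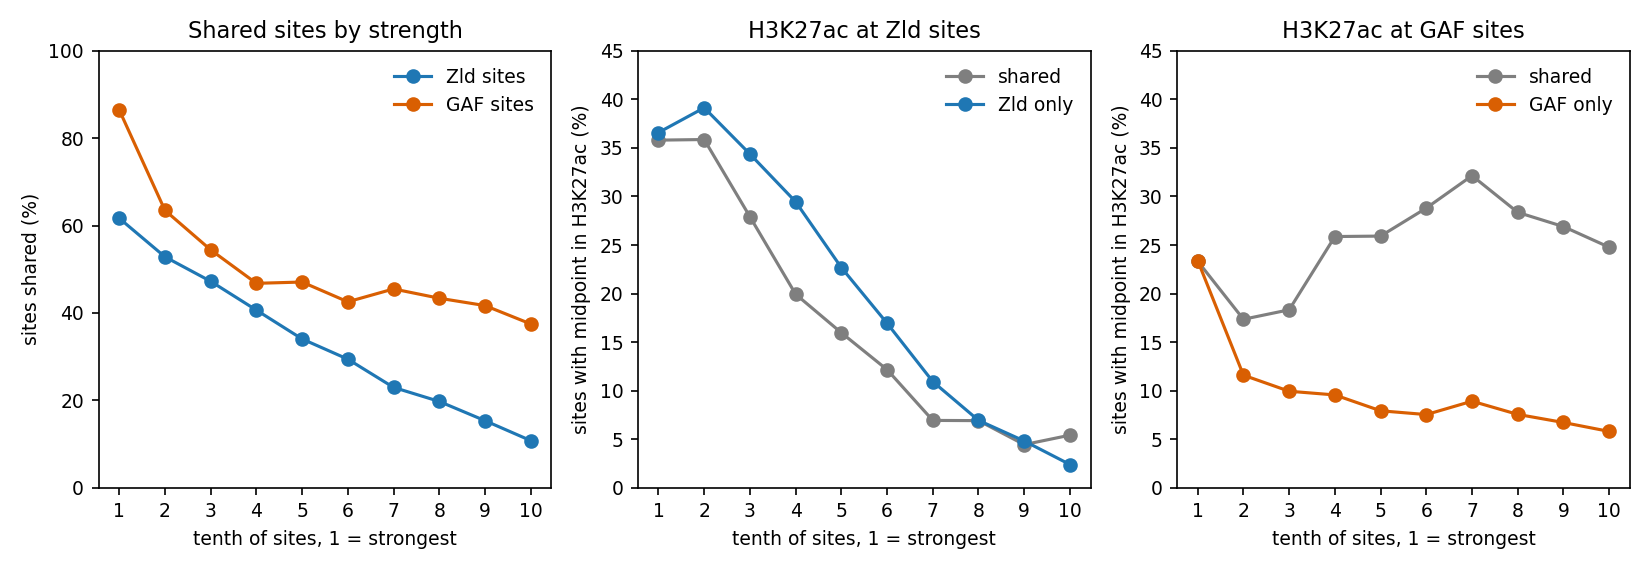
Sites are ordered by the mean percentile of their intervals in the lists of their own factor and cut into 10 equal groups, with the strongest at 1. The left plot gives the percentage shared, and the other plots the percentage with the midpoint in H3K27ac. Shared Zld sites lie at or below Zld-only sites in the strongest 8 groups, while shared GAF sites lie above GAF-only sites in the weakest 9 groups.

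For H3K4me1 the libraries differed, with 13403 intervals in replicate 1 and 6546 in replicate 2. In regions found in both lay 4.76% of shared Zld sites (490 sites, exact 95% interval 4.36 to 5.19), 3.59% of Zld-only sites (562, 3.30 to 3.89) and 1.02% of GAF-only sites (65, 0.790 to 1.302), where the regions cover 1.02% of the arms. With replicate 1 alone the shares were 18.9%, 10.6% and 7.52%, and with replicate 2 alone 7.03%, 4.98% and 1.32%. GAF-only sites were the lowest of these classes each time. GAF sites in between, not among them, had 0.892% in regions found in both libraries. The excess of shared over Zld-only sites was 1.18 points (95% interval 0.675 to 1.68) with both libraries, 2.05 points without H3K4me1 replicate 1 and 8.28 points without H3K4me1 replicate 2. It was −3.86 points with the 5000 strongest intervals, −0.445 points with −log10 q of at least 10 and 0.202 points without the sites over stretches covered in all 12 other lists.

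Over whole lists, without classes, the libraries gave a smaller and partly opposite picture. Summits in H3K27ac made up 11.3%, 11.3% and 10.7% of the Zld lists and 14.1%, 13.3% and 14.1% of the GAF lists, a difference of −2.73 points. For gene ends the shares were 21.5%, 21.3% and 19.7% against 22.3%, 21.7% and 22.1%, a difference of −1.19 points. For H3K4me1 they were 2.88%, 2.75% and 2.40% against 2.14%, 2.04% and 2.05%, a difference of 0.599 points. The groups did not overlap in any of these measures, and each had exact permutation p = 0.10, the smallest possible. Among the 5000 strongest intervals the H3K27ac difference was 7.105 points in favour of Zld and the gene-end difference 24.4 points in favour of Zld, again with exact permutation p = 0.10.

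Genes were assigned a class when a site midpoint lay within 1 kb of either gene end. Of 13922 protein-coding genes on the arms, 6253 (44.9%) had a Zld-only site, 4987 (35.8%) a shared site and 2449 (17.6%) a GAF-only site. These shares are the background for the gene lists below, which were compared with it by count and without a test. Zld-only sites were the sole class at 3358 genes (24.1%), shared sites at 2451 (17.6%) and GAF-only sites at 969 (6.96%). All 3 classes met at 287 genes, and 3832 genes (27.5%) had none.

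Patterning genes and early zygotic genes carried shared sites more often than the background. Of 22 gap and pair-rule genes, which lay out the segments along the head-to-tail axis, 18 (81.8%) had a shared site, 5 a Zld-only and 4 a GAF-only site. Of 14 segment polarity genes 11 (78.6%) had a shared site, of 8 Hox genes 6 and of 30 dorsoventral genes 21 (70.0%). Early zygotic genes, among the first to be transcribed, had one at 18 of 27 (66.7%). In all 5 lists the share with a shared site was above 35.8%, and in 4 of them the share with a Zld-only site, between 22.7% and 30.0%, was below 44.9%, Hox genes being the exception with 4 of 8. The lists share several genes. Of the best-ranked sites per gene list named below, many lay over stretches covered in all 12 lists of Bicoid, Caudal, Dorsal and Twist. The shared ones were those of sc, tll, sna, Dfd, ptc, trx, cad and Hsp70Ba. The Zld-only ones were those of bnk, run, Scr, Z600 and RpS28a. Such cover was not looked up for the other list members named, among them slp1, wg, hkb, wntD, Ubx, abd-A, sog, Psc and kni.

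**Figure D5:**
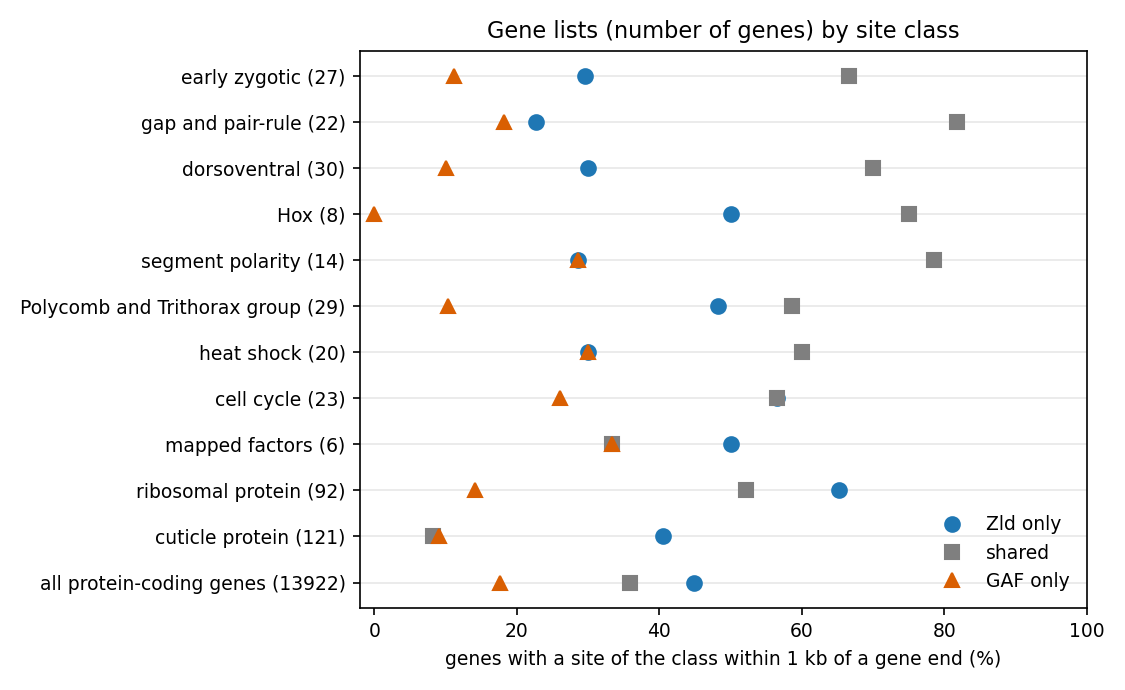
Each row is a gene list with its number of genes, and the symbols give the percentage of its genes with a Zld-only, shared or GAF-only site within 1 kb of a gene end. The gap and pair-rule, segment polarity, Hox, dorsoventral and early zygotic lists have between 66.7% and 81.8% of genes with a shared site, against 35.8% of all protein-coding genes.

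Among gap genes, tll, a nuclear receptor that patterns the ends of the embryo, had its best shared site at 3R:30851754-30852412, 232 bp from a gene end. The site ranked 462, 572 and 344 in the 3 Zld lists and 728, 369 and 339 in the 3 GAF lists. The 2 factors thus placed it in the same range, with summits 86.7 bp apart on average. The site of sna, a repressor that marks the mesoderm, was at 2L:15477767-15478653 over the end of the gene. It ranked 1016, 916 and 682 for Zld and 218, 122 and 172 for GAF, higher for GAF in every library. At slp1, a fork head transcription factor of the pair-rule system, the shared site 2L:3825328-3826093 had a mean rank of 357 for Zld and 1668 for GAF.

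In the early zygotic list, sc, a proneural gene that also counts X chromosomes, had the best-ranked shared site, X:395749-396187. It ranked 154, 187 and 108 for Zld and 121, 57 and 65 for GAF, with summits 2.33 bp apart on average, and its midpoint lay inside the neighbouring gene CG32816.

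Shared sites could be lopsided. At wg, a Wnt ligand, the shared site 2L:7306792-7307299 had a mean rank of 117 for Zld and 6432 for GAF, and at hkb, a gap gene of the termini, the values were 144 and 3102. The shared site of wntD, a Wnt family gene that dampens Dorsal activity, had a mean rank of 134 for Zld and 11752 for GAF. The opposite order was seen at Ubx, a Hox gene of the posterior thorax, with 9678 for Zld and 802 for GAF at 3R:16734336-16734794. It was also seen at abd-A, with 5761 and 543, and at sog, an inhibitor of BMP signalling, with 22222 and 1376. Ranks are positions within lists of different lengths and are no measure of how much protein was bound.

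ptc, the receptor for Hedgehog, had the best-ranked shared site of the segment polarity genes. The site 2R:8649273-8649962 lay 31 bp from a gene end and ranked 32, 29 and 28 for GAF but 649, 862 and 1679 for Zld. The 3 GAF lists agreed closely there, and the Zld lists spread more. At hh, which encodes the ligand, the best Zld-only site ranked 483, 564 and 1201, and its midpoint lay 44 bp from an end of the neighbouring CG31457. At Dfd, a Hox gene of the head, the shared site 3R:6791425-6791964 ranked 501, 504 and 567 for Zld and 474, 335 and 407 for GAF.

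Zld-only and GAF-only sites of the patterning lists varied in rank. The Hox gene Scr had the best Zld-only site of its list, with ranks of 3802, 4684 and 5646. None of the 8 Hox genes had a GAF-only site at its ends, against a background of 17.6%. Within their span or 1 kb beyond it, 6 of the 8 had one, against 3703 of 13922 genes. Hox genes are long, with a median of 30563 bp against 2163 bp for all genes. Mef2, a muscle transcription factor of the dorsoventral list, had a GAF-only site with ranks of 1599, 3936 and 2812, and gsb-n of the segment polarity list one with 2978, 5320 and 4040. The best Zld-only site of the dorsoventral list, at mthl1, a receptor that acts in gastrulation, ranked 604, 455 and 892.

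Some patterning and early zygotic genes lacked a shared site at their ends. hb, a gap gene of the anterior, had 2 GAF-only sites and no Zld-only or shared site within 1 kb of its ends. The better of them, 3R:8697706-8698318, had its midpoint in H3K27ac and ranked 1569, 1384 and 857 in the GAF lists. kni, a gap gene of the abdomen, had only a Zld-only site, 3L:20694349-20695179, with a mean rank of 2894. The pair-rule gene run had a Zld-only site that ranked 1693, 1719 and 751, with both marks over its midpoint. bnk, which acts in cellularization, had a Zld-only site of 1476 bp that ranked 393, 412 and 139, and a separate GAF-only site with a mean rank of 4283 inside the neighbouring gene mesh.

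Genes of the Polycomb and Trithorax groups, which keep Hox genes off or on, were near the background for Zld-only sites, with 14 of 29 (48.3%), and above it for shared sites, with 17 (58.6%). At trx, a histone methyltransferase, the shared site 3R:14286261-14287150 ranked 166, 281 and 591 for Zld and 86, 76 and 95 for GAF. Its summits lay 429 bp apart on average. At Psc, a subunit of the Polycomb repressive complex, the shared site had mean ranks of 264 for Zld and 287 for GAF. In Zld replicates 1 and 2 its interval also covered a Zld-only site beside it. Pc, the chromodomain subunit of that complex, had 4 Zld-only sites and 1 GAF-only site at its ends and no shared site. The GAF-only site had a mean rank of 5431, and the nearest gene to its midpoint was Rab26.

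Of 20 heat shock genes, 12 (60.0%) had a shared site, 6 a Zld-only and 6 a GAF-only site. The small heat shock genes Hsp22, Hsp26 and Hsp27, which encode chaperones and lie in one cluster on 3L, each had a GAF-only site and no shared site. The other members of that cluster differed. Hsp23 had 2 Zld-only sites and no GAF-only site, Hsp67Ba had a Zld-only site and the same GAF-only site as Hsp26, and Hsp67Bc had none. The Hsp22 site ranked 465, 1375 and 1312 in the GAF lists and had its midpoint in H3K27ac. All 6 Hsp70 copies listed had a shared site, and the best, at Hsp70Ba, ranked 18, 16 and 18 for GAF and 563, 772 and 1144 for Zld. Hsp70 copies are near-identical, so reads may have been placed on any of them and these sites cannot be assigned to single copies.

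Cell cycle genes had a Zld-only site at 13 of 23 and a shared site at 13 of 23 (56.5% each). CycE, the cyclin that drives entry into S phase, carried one of the 5 best GAF-only sites on the arms, 2L:15747479-15747887, which ranked 485, 547 and 457 and had its midpoint in H3K27ac. A shared site lay beside it, and in GAF replicate 3 the same interval, with rank 457, covered both. trbl, which slows mitosis by degrading String, had a shared site with ranks of 46, 38 and 55 for GAF and 1225, 1134 and 1534 for Zld. Z600, another inhibitor of early mitosis, had 2 Zld-only sites and none of the other classes. The better of them ranked 787, 878 and 157 and also had its midpoint in H3K27ac.

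Ribosomal protein genes, active in nearly all cells, had Zld-only sites at 60 of 92 (65.2%) and shared sites at 48 (52.2%), both above the background. The best was the Zld-only site at RpS28a, which ranked 95, 97 and 489, and in Zld replicate 1 its interval also covered a shared site beside it. Cuticle protein genes, which build the exoskeleton later, had a shared site at 10 of 121 (8.26%) and a GAF-only site at 11 (9.09%), both below the background, and a Zld-only site at 49 (40.5%). None of the 3 classes was present at 62 of them. Of the mapped factors' own genes, Trl and bcd had a Zld-only site alone at their ends, cad had a shared site with a mean rank of 137 for Zld and 5547 for GAF, and zld had sites of all 3 classes. dl had a GAF-only site alone, and twi had none of the 3 classes at its ends. Within its span or 1 kb beyond it, twi had 6 Zld-only and 7 shared sites. By the same count Trl had 6 shared and dl 3 Zld-only sites.

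The best-ranked sites differed in kind between the classes. The 5 best Zld-only sites all lay at histone genes of the repeated cluster on 2L, at His2A or His2B copies, with mean ranks of 15.3 to 23.7. These copies are near-identical, so the reads may come from any of them. Among the 50 best Zld-only sites, 23 were nearest to a histone gene, 40 lay within 500 bp of a gene end and 46 over stretches covered in all 12 lists of Bicoid, Caudal, Dorsal and Twist. The best shared sites were headed by 3R:3169772-3170446, within the gene Pzl, with ranks of 9, 11 and 9 for Zld and 6, 3 and 7 for GAF. The next 4 lay outside protein-coding genes, 14801 to 199633 bp from the nearest (CG17684, Tim23, CG46302 and DIP-lambda). Of the 50 best shared sites 49 lay over such common stretches, the 5 best among them. Whether reads at these sites map to a single place was not tested.

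Of the 50 best GAF-only sites, 1 lay over a stretch covered in all 12 other lists. Of these 50 sites 40 lay inside a gene, against 16 of the best Zld-only and 29 of the best shared sites. Midpoints in H3K27ac numbered 18 for GAF only, 5 for Zld only and 9 for shared, and within 500 bp of the mark the classes were alike with 31, 30 and 32 of 50. Over the whole classes the order was another, with 8.42%, 16.4% and 22.6% by midpoint and 15.0%, 28.9% and 42.3% within 500 bp. Of the 50 Zld-only sites 23 were nearest to a histone gene, and the 5 best had no H3K27ac within 500 bp. The best GAF-only sites were in Bacc (ranks 393, 528 and 537), CycE, near Su(z)2 (143, 725 and 666), in jing (502, 661 and 397) and in vib (468, 581 and 584). Su(z)2 encodes a relative of Psc, and its site was 7858 bp from the gene. The mean ranks of these 5 GAF-only sites, 486 to 544, were high in lists of 30281 to 34602 intervals. They were still behind the 5 best shared sites, with mean GAF ranks of 5.33 to 57. In the strongest of the 10 groups of GAF sites, 86.5% were shared.

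Over the whole classes, stretches covered in all 12 lists of the other 4 factors underlay 44.1% of shared Zld sites, 13.5% of Zld-only sites and 0.157% of GAF-only sites. The shares were computed again without the sites over such stretches, with strength and width not held equal. This kept 5751 shared Zld, 13557 Zld-only and 6343 GAF-only sites. H3K27ac then held 14.4% of shared, 13.4% of Zld-only and 8.37% of GAF-only sites, and gene ends lay within 500 bp of 21.8%, 20.2% and 19.97%. Of these classes GAF-only sites stayed lowest in H3K27ac, while the same classes were nearly level at gene ends. GAF sites in between had 7.97% in H3K27ac and 17.7% at gene ends.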

How the data were processed

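The authors deposited 1 interval list per library in narrowPeak layout. cutadapt 2.5, Bowtie2 2.3.5.1, MACS2 2.2.7.1 and build dm6 are named in the submitters' processing notes, with no settings. The deposited values per interval are a score, a fold enrichment (a linear ratio) and the −log10 p-value and q-value. They were used to rank, filter and describe intervals within a list. One whole cell extract library was not analysed here.

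Sites, overlaps and shares were computed in Python 3.11.15 (numpy 2.4.6, pandas 2.3.3, scipy 1.17.1) and checked on simulated lists. Mark regions were stretches of at least 50 bp covered in both libraries. Ranks follow −log10 p over the whole list, ties by fold. Per-library values were tested with exact two-sided permutation tests over 20 splits. Genes came from the RefSeq table of Release 6 plus ISO1 MT. All libraries differed, sharing at most 0.393% of intervals exactly.

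Named genes are the nearest genes of the 5 best-ranked sites per class and, from 11 gene lists, the members with the best-ranked site of each class. Other list members were chosen after their values were seen. hry, Elba1, Nin, Rca1, mthl1 and CG4456 were matched through older symbols, 1 listed symbol had no match, and Cpr, no cuticle gene, was dropped from that list. The classes, lists and thresholds were chosen with earlier results of these data known. Alternatives used the 5000 strongest intervals, −log10 q of at least 10, other distances and overlaps, single libraries left out and same-numbered libraries paired. The planned search for sequence motifs was not done here.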

Additional observations from a re-analysis of the deposited data

Results flagged for a closer look

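Many sites lay outside the arms compared here. On the Y chromosome there were 909 Zld sites, 27.2% of them shared, and 591 GAF sites, 42.6% of them shared. On unplaced sequences there were 4186 Zld sites, 29.7% of them shared, and 1657 GAF sites, of which 87.4% were shared and 99 were GAF only. They stand out as signal in sequence that the comparisons did not use. With no gene positions used there, their position and genes were not analysed.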

How the results depend on the processing

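With the 5000 strongest intervals of each list there were 3636 Zld and 4050 GAF sites, of which 823 Zld sites were shared, 2715 Zld only and 2883 GAF only. Zld-only minus GAF-only shares were then 33.1 percentage points at gene ends, 26.0 in H3K27ac and 9.90 in H3K4me1, and shared minus Zld-only shares −11.6, −10.4 and −3.86, against the opposite sign with all intervals. The library differences of Zld minus GAF also turned in sign, to 137 bp in width, 24.4 points at gene ends, 7.105 in H3K27ac and 2.96 in overlap with the other factor. With −log10 q of at least 10 there were 16894 Zld sites, 6434 shared and 8647 Zld only. The class differences were 14.8, 20.1 and 5.57 points, and −2.42, −0.678 and −0.445 in the same order, and width (40 bp), gene ends (5.77) and H3K27ac (2.57) turned in sign between libraries. The cause of the sign changes was not tested. GAF-only sites had less H3K27ac than Zld-only sites under the alternatives for which this difference was computed, which leave out the longer minimum stretch and the stricter overlap.

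With 100 bp to a gene end Zld-only sites exceeded GAF-only sites by 1.17 points, and with 1000 bp shared sites exceeded Zld-only sites by 5.24. Counting 1 bp in the mark gave 13.8 and 13.1 points for H3K27ac and 3.01 and 6.24 for H3K4me1. Counting midpoints within 500 bp gave 13.9, 13.4 and, for shared minus Zld-only in H3K4me1, 8.60. Leaving out sites over stretches covered in all 12 other lists, chosen after the data were seen, left 5751 shared sites, with 0.266, 4.99 and 1.47 points for Zld-only minus GAF-only sites and 1.53, 1.02 and 0.202 for shared minus Zld-only sites.

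With single libraries left out, Zld-only minus GAF-only shares lay between 0.696 and 3.99 points at gene ends, 5.29 and 8.62 in H3K27ac and 1.89 and 3.65 in H3K4me1. Shared minus Zld-only shares lay between 5.65 and 8.11, 5.75 and 8.20, and 1.13 and 8.28. The width difference lay between −14.7 and 7.83 bp. Same-numbered libraries share only a number. In 10 kb bins their deviations correlated at 0.00561, −0.0298 and −0.0422, and with the replicate block the differences were the same (−5 bp, −1.19, −2.73, 0.599 and −18.2 points), with exact sign-flip p of 1 for width and 0.25, the smallest possible, for the others.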

Other observations

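The arms differed little in the density of sites, with 2 departures. Chromosome 4 had 160 Zld-only sites per Mb against 110 to 124 on the other arms, and 34.9 GAF-only sites per Mb against 44.6 to 51.2. On the X chromosome 37.2% of Zld sites were shared, against 28.7% to 33.6% on the other arms, with 84.7 shared Zld sites per Mb against 73.5 to 76.5 on 2L, 2R, 3L and 3R and 87.5 on chromosome 4. Very long genes held many sites of all classes. Myo81F, a myosin gene spread over 1965857 bp, had 236 Zld-only, 159 shared and 88 GAF-only sites within its span or 1 kb beyond it. Over that length such counts are close to the densities of the arms given above. Taldo, the gene of the enzyme transaldolase, had 6 Zld-only sites at its ends, and Ald1, the gene of fructose-bisphosphate aldolase, had 4 GAF-only sites. These genes were chosen after their values were seen.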
